A study of Mus musculus with 40 samples.

Results

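The immediate early response genes described here are 10 mouse genes, Fos, Fosb, Jun, Junb, Atf3, Egr1, Nr4a1, Nr4a2, Nr4a3 and Ier2, and the data are the histone marks called as peaks over them in brown adipose tissue. They were taken as a named list, without a measured value as the rule, though earlier results of these data were known when it was chosen. They are 10 of the 55413 genes annotated on chromosomes 1 to 19, X and Y. For each, every peak of H3K4me3, H3K27ac, H3K4me1 and H3K27me3 over the gene body and 20 kb on either side was collected from 32 peak lists, which gave 649 peaks. Of these 314 were H3K4me3, 257 H3K27ac, 71 H3K4me1 and 7 H3K27me3.

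Immediate early genes are switched on within minutes of a stimulus by kinases that act on transcription factors already present in the cell, so that no new protein has to be made first. In brown fat, noradrenaline acting through cAMP and CREB is a classical inducer. Their promoters are usually held open before the stimulus: H3K4me3 marks such promoters, H3K27ac marks active promoters and enhancers, H3K4me1 marks enhancers, and H3K27me3 is the mark of Polycomb repression. The members fall into the AP-1 family of leucine zipper proteins (Fos, Fosb, Jun, Junb and the related Atf3), the zinc finger factor Egr1, the NR4A orphan nuclear receptors, and Ier2, a small nuclear protein.

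ChIP-seq was made on brown fat from 8 animals of the C57BL/6N strain, all wild type and 20 weeks old, in a 2 by 2 design of housing temperature and diet with 2 mice per condition. Mice 1 and 2 were warm on chow (NCD), mice 4 and 5 were cold on chow, mice 7 and 8 were warm on high fat diet (HFD), and mice 10 and 11 were cold on HFD. Cold was 4 °C for 24 h, HFD was fed for 12 weeks from 8 weeks of age, and the labels give no temperature for the warm mice. Tissue of all groups was dissociated to a cell suspension before cross-linking, and no unhandled tissue was compared, so the part of that handling in the state of these genes was not tested. The depot is given as iBAT in the sample labels and as interscapular in the study, whereas the design text names it inguinal. Below, values listed for 8 mice follow the order of mice 1, 2, 4, 5, 7, 8, 10 and 11.

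The lists differed widely in length. Those of H3K4me3 held 13517 to 24104 peaks and those of H3K27ac 3224 to 40604, with the shortest of both in mouse 7, a warm HFD mouse. H3K4me1 lists held 12 to 27568 peaks and H3K27me3 lists 20 to 6428. Read depth is not part of a peak list, so an absent peak means that none was detectable in that library. An H3K4me3 promoter peak was present at 9 to 10 of 10 brown adipocyte markers, 1 to 4 of 10 muscle markers, 3 to 6 of 6 endothelial markers, 0 to 2 of 8 leukocyte markers and 0 to 1 of 6 neuronal and liver markers. The tissue is a mixture, and a smaller share of cells carrying a mark cannot be told apart from less of the mark per cell.

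The promoters that carried these peaks are shown first, because several hold a short cAMP response motif and because the bases printed for Jun and Atf3 are those that H3K27ac left free. They are taken from the RefSeq promoter table (GRCm38.p6), read 5′ to 3′ on the strand of the gene, and end at the last base before an annotated exon. Capitals mark a match on either strand to TGACG (the core of the cAMP response element), TATAAA, GCGNGGGCG (the EGR site), TGANTCA (the AP-1 site), AAAGGTCA (the NR4A monomer site), the full element TGACGTCA or the CArG box of serum response factor. TGACG is contained in TGACGTCA. The Fos sequence is chr12:85473640-85473889 (+), Fosb is chr7:19310052-19310295 (−), Jun is chr4:95052223-95052472 (−), Atf3 is chr1:191183341-191183583 (−), Nr4a1 is chr15:101266596-101266845 (+) and Nr4a3 is chr4:48045055-48045152 (+).
Fos: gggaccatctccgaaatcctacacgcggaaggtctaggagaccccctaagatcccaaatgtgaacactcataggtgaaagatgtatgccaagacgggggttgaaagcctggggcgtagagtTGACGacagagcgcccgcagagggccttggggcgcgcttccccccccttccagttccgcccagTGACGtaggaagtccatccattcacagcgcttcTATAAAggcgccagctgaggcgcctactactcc
Fosb: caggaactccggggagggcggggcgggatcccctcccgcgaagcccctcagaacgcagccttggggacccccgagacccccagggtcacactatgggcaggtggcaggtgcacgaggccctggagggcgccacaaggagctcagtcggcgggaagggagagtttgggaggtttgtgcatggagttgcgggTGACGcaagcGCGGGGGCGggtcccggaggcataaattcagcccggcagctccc
Jun: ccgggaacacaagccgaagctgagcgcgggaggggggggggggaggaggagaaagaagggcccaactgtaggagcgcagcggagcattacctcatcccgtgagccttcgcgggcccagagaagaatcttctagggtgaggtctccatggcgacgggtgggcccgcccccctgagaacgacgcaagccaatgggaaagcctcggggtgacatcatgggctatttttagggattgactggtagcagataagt
Atf3: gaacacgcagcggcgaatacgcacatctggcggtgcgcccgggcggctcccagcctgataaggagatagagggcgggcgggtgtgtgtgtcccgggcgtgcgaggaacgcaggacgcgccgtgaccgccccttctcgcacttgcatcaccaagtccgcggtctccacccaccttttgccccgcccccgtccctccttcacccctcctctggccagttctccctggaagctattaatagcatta
Nr4a1: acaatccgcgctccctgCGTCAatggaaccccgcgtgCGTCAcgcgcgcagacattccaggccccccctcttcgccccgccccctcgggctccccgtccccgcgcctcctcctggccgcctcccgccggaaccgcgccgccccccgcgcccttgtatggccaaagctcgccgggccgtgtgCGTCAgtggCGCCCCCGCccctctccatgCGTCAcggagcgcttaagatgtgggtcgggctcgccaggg
Nr4a3: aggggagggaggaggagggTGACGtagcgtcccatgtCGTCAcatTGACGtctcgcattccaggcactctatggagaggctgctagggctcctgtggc

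In Fos the TGACG matches began at −129 and −66 and the TATAAA match at −33, where −1 is the last base printed and the base after it is an annotated start. In Nr4a1 TGACG matches stood at −233, −213, −69 and −40 with an EGR site at −60, in Nr4a3 at −79, −61 and −53, and in Fosb at −54 beside an EGR site at −44. The bases printed for Jun and Atf3 held 0 matches to any of these motifs. Of the 8 members with an entry in the table, 7 held TGACG within the 300 bases around the RefSeq start (250 before and 50 after), against 20.8% of all 32851 promoters of the same length. TATAAA was found in 3 of 8 against 13.6%, and GCGNGGGCG in 3 of 8 against 5.55%. The full TGACGTCA (1.79% of promoters), TGANTCA (7.81%), AAAGGTCA (1.51%) and the CArG box (1.63%) were in 0 of 8. These are letter matches in a short window and were not tested as binding sites.

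Outside the promoters, a pair of windows of 200 bases around the H3K27ac summit shows the distal regions of Atf3 and Nr4a1 described further on. The Atf3 window is chr1:191230658-191230857 (−) in GRCm38, upstream of the gene, and the Nr4a1 window is chr15:101261005-101261204 (+), between the starts of the gene. The first holds an AP-1 match, which 5.18% of the 40571 windows of equal length at the H3K27ac peaks of mouse 11 also held, and the second holds none of the motifs searched.
Atf3 upstream region: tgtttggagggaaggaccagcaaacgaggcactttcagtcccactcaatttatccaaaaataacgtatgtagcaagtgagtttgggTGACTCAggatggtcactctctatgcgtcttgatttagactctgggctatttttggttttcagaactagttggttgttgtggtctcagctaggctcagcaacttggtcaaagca
Nr4a1 intragenic region: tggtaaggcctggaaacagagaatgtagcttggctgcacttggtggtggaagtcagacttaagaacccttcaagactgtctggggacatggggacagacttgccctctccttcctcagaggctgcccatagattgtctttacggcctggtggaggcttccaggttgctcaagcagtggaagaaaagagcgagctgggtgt

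All 10 members carried H3K4me3 at the promoter, in all 8 mice for 9 of them and in 7 mice for Egr1, and the summed breadth was large. Breadth is the summed width of all peaks touching 1000 bp on either side of any annotated start. It therefore adds the separate peaks at different starts of Nr4a1 and of Nr4a2 and does not measure a single domain. The median over mice ran from 2513.5 bp for Atf3 to 4974 bp for Ier2. Ranked against all genes with an H3K4me3 promoter peak in the same mouse, the median of the members' median percentiles was 95.7 (SD over mice 17.1), from 83.3 for Atf3 to 98.8 for Nr4a2. In mouse 7 the median member stood at percentile 48.0, against 90.9 to 98.3 in the other 7 mice. H3K27ac separated the members: Jun (median 4019 bp, percentile 95.6), Ier2 (3314.5 bp, 94.1), Junb (2867 bp, 94.8) and Nr4a2 (2707 bp, 94.0) were among the broader promoters, whereas Fos (873.5 bp), Nr4a3 (615.5 bp), Atf3 (584.5 bp) and Nr4a1 (339 bp) stood at percentiles from 32.9 to 54.9, taken over the mice with a peak. Egr1 and Fosb had an H3K27ac median of 0. The shortest H3K27ac list, that of mouse 7, had no promoter peak at any member.

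**Figure D1:**
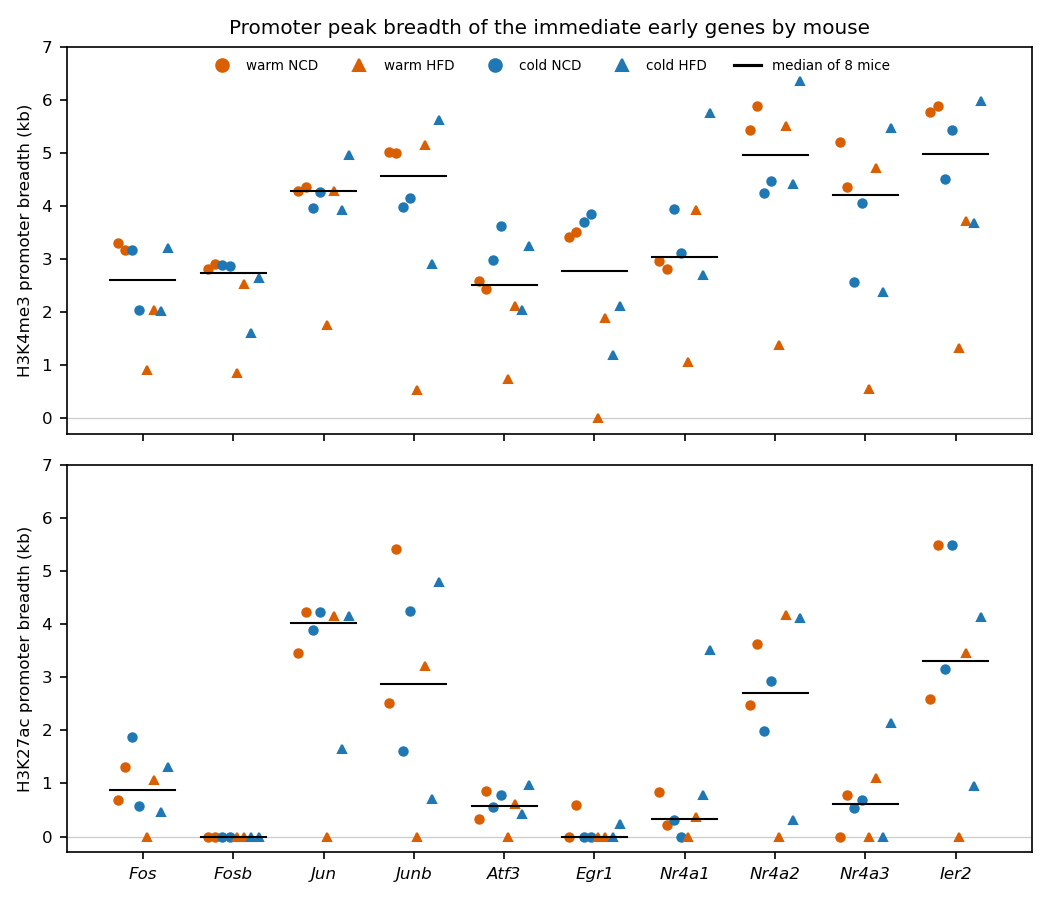
Promoter breadth (kb) of H3K4me3 (upper panel) and H3K27ac (lower panel) at each of the 10 members, with 1 point per mouse, colour for temperature, shape for diet and a line for the median of 8 mice. The H3K4me3 medians lie between 2513.5 and 4974 bp with mouse 7 lowest at every member. The H3K27ac medians lie between 0 at Egr1 and Fosb and 4019 bp at Jun. Fosb is at 0 in every mouse, and the highest single H3K27ac value is 5500 bp, at Ier2 in mouse 2.

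Among the AP-1 members, Fos encodes the partner that dimerises with Jun proteins. Its gene lies at chr12:85473890-85477273 (+, GRCm38). H3K4me3 at the Fos promoter was 3309, 3174, 3166, 2042, 901, 2041, 2017 and 3206 bp wide in the 8 mice. H3K27ac there was 689, 1304, 1868, 576, 0, 1058, 466 and 1304 bp. The values of cold and warm mice overlapped for both marks, as did those of HFD and NCD mice. The fold enrichment over input at the Fos H3K4me3 peak ran from 3.31 in mouse 7 to 81.9 in mouse 5, and H3K27ac reached 14.6 in mouse 11. H3K27ac covered the annotated start in all 7 mice that had it.

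Fosb, a paralog of Fos with the same dimerisation partners, lies at chr7:19302696-19310051 (−). It had H3K4me3 of 2818, 2909, 2888, 2877, 847, 2538, 1609 and 2639 bp, and H3K27ac in 0 of 8 lists. Among the 11479 genes with an H3K4me3 promoter peak in every list, 5.24% had no H3K27ac promoter peak in any, and Fosb is one of them. In the gene body a narrow H3K27ac peak of 298, 294 and 312 bp was called in mice 2, 5 and 11. Its centre lay 1628 bp from the 5′ end and 1176 bp from the annotated start at 19309600, just outside the promoter window of 1000 bp. With a window of 2500 bp all 10 members had H3K27ac at the promoter in some list, so the absence at Fosb depends on the window.

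Jun, the main transactivating AP-1 subunit, lies at chr4:95049034-95052222 (−). H3K4me3 was 4279, 4359, 3962, 4272, 1752, 4286, 3927 and 4970 bp, and H3K27ac was 3463, 4240, 3887, 4241, 0, 4151, 1645 and 4162 bp. Apart from mice 7 and 10 the H3K27ac values were close together, at 3463 to 4241 bp. In 6 mice the mark formed a pair of shoulders with a gap of 280 to 731 bp over the start (median 376.5 bp), and in mouse 2 a peak reached the start itself. No list had an H3K27ac peak on the Jun bases printed above. Taken over all mice, the H3K4me3 region also came within 1000 bp of the start of the neighbouring transcript Gm12703 without covering it. H3K4me3 was not divided between both genes. No H3K27ac peak at the Jun start came that near to Gm12703.

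Junb, which pairs with Fos proteins and is the weaker transactivator, lies at chr8:84974484-84978718 (−). It had H3K4me3 of 5016, 5004, 3986, 4148, 524, 5146, 2911 and 5622 bp, and H3K27ac of 2513, 5431, 1610, 4251, 0, 3221, 700 and 4793 bp. Both marks were narrowest in mice 7 and 10, which also had the 2 shortest lists of each mark. H3K27ac flanked the start in mice 1, 4 and 5 with gaps of 299 to 521 bp and covered it in mice 2, 8 and 11.

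Atf3, a stress-induced factor of the ATF/CREB family, lies at chr1:191170296-191218039 (−) and has 2 annotated starts. The upstream start at position 191218039 had no peak of either mark in any mouse. The internal start at 191183340 carried H3K4me3 in 8 mice and H3K27ac in 7. H3K4me3 there was 2591, 2436, 2986, 3615, 733, 2108, 2035 and 3243 bp, and H3K27ac 326, 858, 553, 775, 0, 616, 430 and 975 bp. Both marks parted around the start: H3K4me3 flanked it on both sides in 6 mice (gap 238 to 779 bp) and H3K27ac in 5 (331 to 781 bp). The printed Atf3 promoter falls inside the stretch without H3K27ac.

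Nr4a1, Nr4a2 and Nr4a3 are orphan receptors that bind DNA without a known hormone and are induced by cAMP. Nr4a1 lies at chr15:101254269-101274795 (+) with starts at 101254269 and 101266846. H3K4me3 over both was 2959, 2804, 3947, 3114, 1050, 3933, 2702 and 5753 bp. The downstream start was marked in 8 mice and the upstream start in 7, with a median of 980 bp at the latter. H3K27ac was 836, 224, 304, 0, 0, 374, 790 and 3527 bp, and mouse 11, cold on HFD, stood apart from the other 7, which reached at most 836 bp. It was the only mouse with H3K27ac at the upstream start.

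Nr4a2 lies at chr2:57106830-57124003 (−), with H3K4me3 of 5431, 5890, 4239, 4482, 1378, 5507, 4424 and 6358 bp and H3K27ac of 2472, 3636, 1986, 2942, 0, 4171, 317 and 4112 bp. Its internal start at 57115038 carried the larger part of both marks, with medians of 3848 bp of H3K4me3 and 2126.5 bp of H3K27ac, against 1271.5 and 481 bp at the start at 57124003. At the internal start H3K27ac lay on the upstream side in 4 mice and on both sides in 3.

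Nr4a3, at chr4:48045153-48086447 (+), had H3K4me3 of 5202, 4351, 2576, 4063, 544, 4722, 2379 and 5480 bp. Its H3K27ac was 0, 783, 540, 691, 0, 1105, 0 and 2133 bp. The acetylated bases lay on the upstream side of the Nr4a3 start in 4 of the 5 mice with a promoter peak and covered the start in mouse 11. No other gene starts within 20 kb of Fos, Nr4a2 or Nr4a3.

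Egr1, a zinc finger activator that binds GC-rich sites, lies at chr18:34859823-34864984 (+). H3K4me3 was 3423, 3520, 3696, 3858, 0, 1897, 1190 and 2121 bp. The marked bases lay on the downstream side of the 5′ start in 6 of the 7 mice that had them. Another Egr1 start is annotated at 34861207, and H3K4me3 lay on both sides of it in these 7 mice. The medians over all mice were 1248 bp upstream and 1187 bp downstream of that start, so the one-sided picture depends on the start taken. H3K27ac was called only in mice 2 and 11, at 589 and 230 bp. Ier2, at chr8:84661331-84662852 (−), is the shortest gene of the list and had H3K4me3 of 5777, 5887, 4506, 5442, 1325, 3720, 3686 and 5982 bp. Its H3K27ac was 2593, 5500, 3161, 5496, 0, 3468, 954 and 4142 bp. The peaks of both marks at Ier2 also lay over the start of Gm26664 or within 1000 bp of it, so these cannot be told apart.

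**Figure D2:**
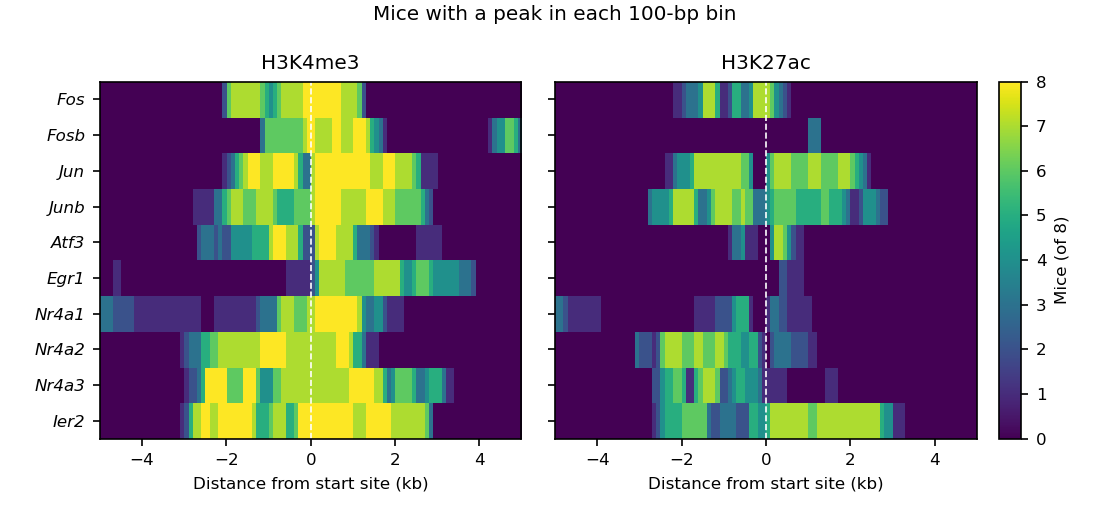
Number of mice, of 8, with an H3K4me3 peak (left) or an H3K27ac peak (right) in each 100-bp bin by distance (kb) from 1 start of each member, read in the direction of transcription, with the colour giving the number of mice. H3K27ac parts around the start of Jun and Atf3, lies on the upstream side at Nr4a3, covers the start of Fos in 7 mice and is absent at the start of Fosb.

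Over all 10 members and 8 mice, 1 start was taken per member, which for Egr1 was the 5′ start. H3K4me3 covered the start in 59 of the gene and mouse pairs and flanked it on both sides in 11. It lay on the downstream side in 9, of which 6 were Egr1, and was not within 1000 bp in 1. The 6 at Egr1 depend on the start taken, because H3K4me3 lay on both sides of the other Egr1 start. H3K27ac covered the start in 17, flanked it on both sides in 19 and lay on the upstream side in 12. It lay on the downstream side in 7 and was not within 1000 bp in 25. H3K4me3 exceeded H3K27ac in breadth at all 9 members that could be fitted (Fosb had no H3K27ac within 1000 bp of a start). With limma on log2(bp + 100), 6 of 9 passed an adjusted p of 0.05, all with the broader H3K4me3, against 64.7% of all 12493 genes. They were Egr1 (log2 difference 3.61, adjusted p = 0.000115), Nr4a3 (2.90), Nr4a1 (2.77), Atf3 (2.09), Fos (1.63, adjusted p = 0.0111) and Nr4a2 (1.47, adjusted p = 0.0497). Jun (0.76), Junb (0.94) and Ier2 (1.00) did not pass. The median over the 9 was 1.63, beside 1.57 over all genes. With the mouse as a replicate block 8 of 9 passed, against 77.0% of all genes, and only Jun did not. The call for Nr4a2 was lost when any mouse but mouse 7 was left out, and with mouse 2 or mouse 11 left out 4 members passed.

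Away from promoters, peaks were merged over mice into regions. H3K27ac gave 43 regions over the members, of which 16 lay at the members' own starts, 7 at the start of another gene and 20 elsewhere. Of the distal ones 16 were seen in at least 2 mice, at 9 members, and 10 of these 16 overlapped H3K4me3 in some mouse and 9 overlapped H3K4me1. No transcript start is annotated within 1000 bp of the regions named next. Positions are those of the region's centre from the 5′ end of the gene, in bp, and are negative upstream.

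Upstream of Fos, at −18506, H3K27ac covered 248, 1193, 491, 439, 0, 0, 0 and 945 bp, so it was present in all 4 NCD mice and in 1 of 4 HFD mice. H3K4me3 over nearly the same bases, at −18370, was 1249, 1394, 1004, 1092, 0, 673, 288 and 1462 bp. A second H3K4me3 region at 12828, past the end of the gene, was present in every mouse, with 2366, 2041, 1976, 1717, 738, 2489, 1280 and 2350 bp. Upstream of Fosb, at −17064, H3K27ac covered 455, 682, 599, 607, 0, 462, 450 and 1042 bp. Thus Fosb, with no H3K27ac peak within 1000 bp of a start, had an acetylated distal region in 7 of 8 mice, with an H3K4me3 peak beside it (−16991) in all 8. Upstream of Jun, at −16758, H3K27ac was found in mice 8 and 11 only. Upstream of Junb H3K27ac was found at −7046 in mice 1, 8 and 11 and at −5607 in mice 4 and 11. An H3K4me3 region centred at −7073 was present in mice 1, 2, 4, 5, 8, 10 and 11. H3K4me1 was found at −2268 in mice 2, 5, 8 and 11.

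Atf3 had an upstream H3K27ac region at −12786, of which the summit is printed above. It covered 0, 213, 834, 416, 0, 1022, 467 and 689 bp, so it was present in all 4 cold mice and in 2 of 4 warm mice, and H3K4me1 overlapped it in 3 mice. A further region at −14725 was 402, 287 and 839 bp in mice 8, 10 and 11, all on HFD, and absent in the 4 NCD mice and mouse 7. The region of both marks at −6748 in all 8 mice belongs to the promoter of D730003I15Rik. These distances are from the Atf3 start at 191218039, which had no H3K4me3 or H3K27ac peak. The marked Atf3 start at 191183340 lies farther from each of these regions.

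At Nr4a1 distal stretches carried 3 of the marks. H3K27ac between its starts, at 7558, covered 258, 497, 1040, 330, 0, 884, 1181 and 2299 bp. H3K4me3 over the same stretch, at 8048, was 960, 577, 937, 639, 823, 1560, 1976 and 3582 bp. Both were broadest in mouse 11, which also had the longest list of each mark, and H3K4me1 overlapped in 4 mice. Upstream, at −7748, H3K27ac was 283, 1002, 0, 486, 0, 243, 0 and 1158 bp, and past the gene, at 37424, it was 0, 385, 472, 618, 0, 537, 422 and 895 bp. Nearer to the gene end, another H3K27ac stretch was present in every mouse but mouse 7. It ran from 31.852 to 34.208 kb in mouse 5 and from 32.169 to 34.423 kb in mouse 11. Merging over mice joined it to the peak at the Atg101 start, so it is not counted among the distal regions. Past the end of Nr4a2, at 20598, H3K27ac covered 245, 1334, 226, 387, 0, 991, 0 and 907 bp, and past Ier2, at 6014, it covered 657, 1062, 1629, 978, 0, 931, 1087 and 1730 bp. These regions recurred in 5 to 7 of the 8 mice and in mice of both diets and both temperatures. Egr1 had H3K27ac past the gene at 7914 in mice 4 and 11 only, of 1190 and 616 bp, and H3K4me1 at −9785 in mice 2 and 5. Over all members 2 distal H3K27ac regions seen in at least 2 mice were in cold mice only (those at Egr1 and Junb, in mice 4 and 11), 1 was in warm mice only, 1 in NCD mice only and 2 in HFD mice only (at Atf3 and Jun). With 4 mice on each side and lists of such unequal length, no test was made of single regions.

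**Figure D3:**
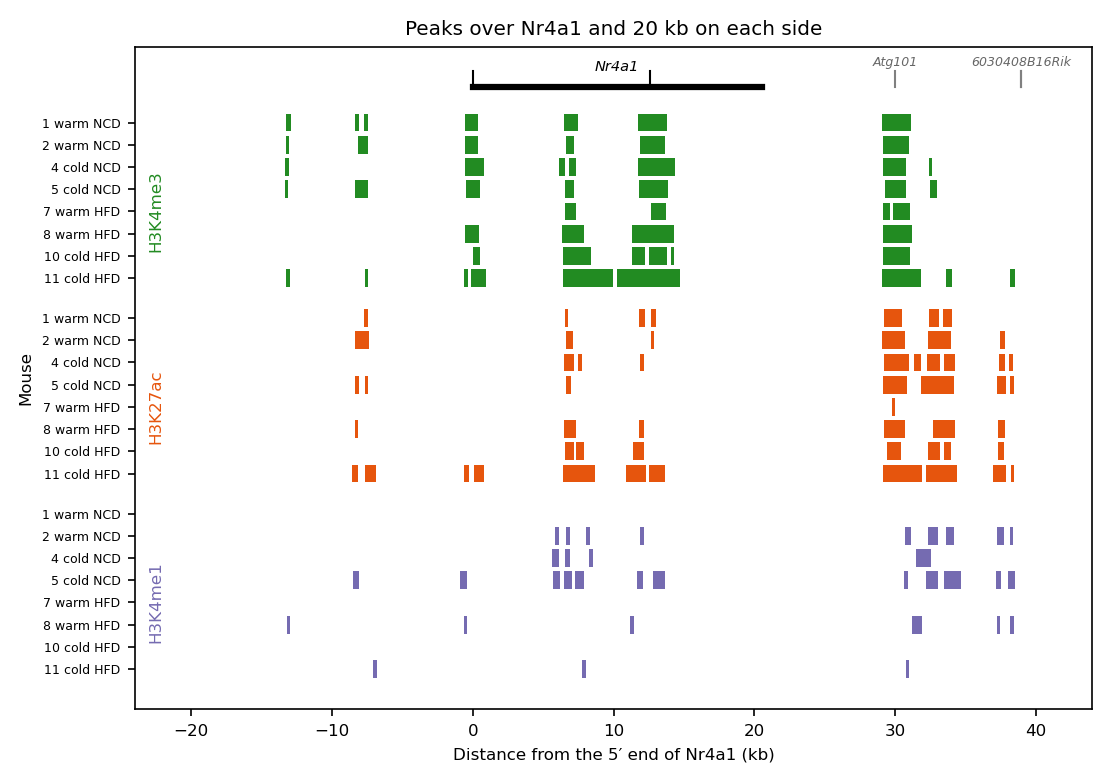
Peaks of H3K4me3, H3K27ac and H3K4me1 in each mouse over Nr4a1 and its surroundings, in kb from the 5′ end of the gene, with 1 line per mouse and mark and ticks at annotated starts. The stretch between both Nr4a1 starts carries H3K27ac in 7 mice and is broadest in mouse 11, at 2299 bp.

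H3K4me1 was called somewhere over the body and 20 kb of all 10 members in at least 1 mouse, in 5 mice for Nr4a1 and Atf3, 4 for Junb, 3 for Fos, 2 for Egr1 and Nr4a2 and 1 for the rest. In mouse 5, which had the longest list, 7 of 10 members had a peak, beside 62.8% of the 17555 genes with an H3K4me3 promoter peak in at least 2 lists. H3K27me3 was called only in mouse 5, at 4 of 10 members against 17.9% of the same genes: Fos (262 bp), Atf3 (569, 268 and 247 bp), Egr1 (336 bp) and Nr4a3 (397 and 334 bp). Of the 7 peaks 6 overlapped an H3K4me3 region. No list but that of mouse 5 held more than 1392 H3K27me3 peaks, so in the other mice it was not detectable at the depth of those lists.

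Cold exposure is the stimulus that activates brown fat, and the first comparison asked whether the marks at these genes differed after 24 h at 4 °C. No member passed for H3K4me3 breadth (0 of 10, against 0.0% of 17555 genes, limma with diet as a term). All 10 differences of cold minus warm on the log2(bp + 100) scale, on which the low values of mouse 7 weigh most, were above 0, although the mean of Nr4a3 in bp was lower in cold mice (3625 against 3705 bp). The median log2 difference was 0.35 beside 0.15 over all genes, and the 2 with the lowest p were Atf3 (0.68 ± 0.37, SE) and Nr4a1 (0.59 ± 0.46). The limma adjusted p was 1.0 for each of the 10. H3K27ac promoter breadth gave 0 of 9 (0.0% of 13284 genes), with 8 of 9 log2 differences above 0 and a median of 0.80 beside 0.40, while the mean of Nr4a2 was 2339 bp in cold and 2570 bp in warm mice. The standard error was 1.08 for every gene, which is larger than each of the members' differences, the highest being 1.07 for Jun. The distal H3K27ac breadth, all acetylated bases over 1000 bp from any start, which includes the outer shoulders of broad promoter peaks, gave 0 of 10 (0.0% of 17935 genes), with a median of 1.04 beside 0.85 and the highest values for Atf3 (1.91 ± 1.03) and Nr4a1 (1.86 ± 1.12). At an unadjusted p of 0.05 no member passed in any of these, while 533, 318 and 1255 of all genes did. All members were measured in the same 8 mice, so a sign shared by them, here and below, is not a set of separate agreements.

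The median differences at promoters changed sign without mouse 7. Without it the median difference of cold minus warm was −0.05 for H3K4me3 (all genes −0.15), −0.21 for H3K27ac promoters and 0.11 for distal H3K27ac, and with list length as a covariate it was −0.24, −0.31 and 0.14. Within NCD, which does not include that mouse, both cold mice were below both warm mice in H3K4me3 breadth at 6 of 10 members (Fos, Jun, Junb, Nr4a2, Nr4a3 and Ier2), against 58.7% of all genes, and above both at 3 (Atf3, Egr1 and Nr4a1), against 13.8%. The median within NCD was −0.15, and within HFD it was 0.94.

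For diet, 0 of 10 members passed in H3K4me3 breadth, against 0.302% of all genes. All 10 log2 differences of HFD minus NCD were below 0, with a median of −0.65 beside −0.31 over all genes, although the mean of Nr4a1 in bp was higher on HFD (3360 against 3206 bp). Egr1 differed most, with 3624 ± 192 bp (SD, n = 4) in NCD mice and 1302 ± 954 bp in HFD mice, a log2 difference of −2.10 ± 0.90 (SE) with a limma adjusted p of 0.682. At Fosb it was 2873 ± 39.0 bp in NCD and 1908 ± 846 bp in HFD (−0.68 ± 0.37, limma adjusted p = 0.682). At these 2 of 10 members every HFD mouse was below every NCD mouse, as at 3.68% of all genes. Without mouse 7 the median over the members was −0.12 (all genes −0.00188) and 5 of the 10 were below 0, while the value for Egr1 was −1.05 ± 0.23 (limma adjusted p = 0.542).

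H3K27ac promoter breadth gave 0 of 9 members by diet (0.0% of all genes), with a median of −1.0 beside −0.92. Ier2 had the lowest p (−1.86 ± 1.08) and Nr4a1 alone had a log2 difference above 0 (0.91). In bp the mean of Nr4a3 was also higher on HFD (810 against 504 bp), with a log2 difference of −0.18. Distal H3K27ac gave 0 of 10 (0.0%), with a median of −1.02 beside −0.51 and Atf3 alone above 0 on the log2 scale (0.84 ± 1.03), while the mean of Nr4a1 in bp was 3659 on HFD and 3252 on NCD. Without mouse 7 these medians were −0.17 and −0.00607. Of all genes 1126, 311 and 258 passed an unadjusted p of 0.05 in the 3 diet comparisons, and no member did.

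The interaction asks whether the difference by temperature depended on diet. For H3K4me3 0 of 10 members passed (0.0171% of all genes), with all 10 estimates above 0 and a median of 1.23 beside 0.80. For H3K27ac 0 of 9 passed (0.0%), with a median of 1.69. Nr4a1 stood highest at 4.50 ± 2.33 (SE) with a limma adjusted p of 1.0, and it was the member whose acetylated promoter breadth was 3527 bp in mouse 11 and 0 in mouse 7. Without mouse 7 the medians were 0.03 and −0.51. Without mouse 8, so that mouse 7 was the only warm HFD mouse and is assumed to vary like the others, 6 of 10 members passed for H3K4me3 (Jun, Junb, Egr1, Nr4a2, Nr4a3 and Ier2), as did 39.7% of all genes.

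**Figure D4:**
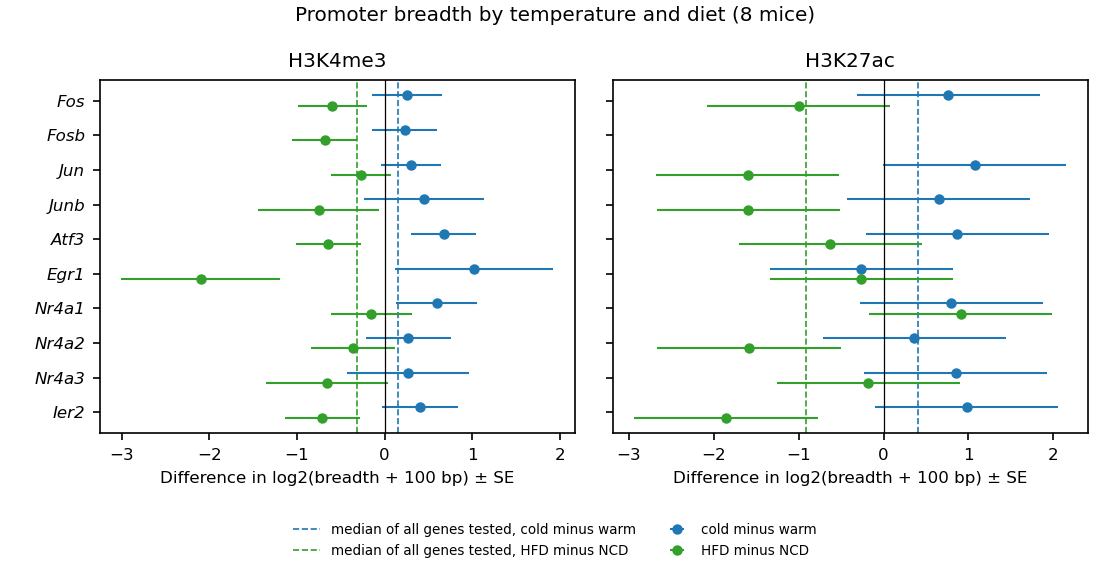
Difference in log2(breadth + 100 bp) with its SE at each member for cold minus warm (blue) and HFD minus NCD (green) over 8 mice, for H3K4me3 (left) and H3K27ac (right), with dashed lines at the medians of all genes tested. For H3K4me3 the 10 differences by temperature lie above 0, from 0.23 at Fosb to 1.02 at Egr1, and the 10 by diet lie below 0.

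No member passed for the presence of a promoter peak. For H3K4me3 only Egr1 varied, with a peak in 4 of 4 cold and 3 of 4 warm mice (Fisher's exact test, p = 1). For H3K27ac 9 members varied: Fos, Jun, Junb, Atf3, Nr4a2 and Ier2 lacked it in mouse 7 only, Nr4a3 had it in 3 cold and 2 warm mice, Nr4a1 in 3 and 3, and Egr1 in 1 and 1. None passed by temperature or diet (Fisher's exact test, p = 1 for each member and comparison), and 0.0% of all genes did for either mark. With 4 mice against 4 the smallest p of this exact test is 0.0286, and the lowest adjusted p over all genes was 1.0, so it could hardly have called a gene.

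A wider list of 62 genes of the same response (other FOS, JUN and EGR family members, serum response and CREB factors, and early targets such as Dusp1, Btg2 and Sik1) was fitted as well. Of 60 tested for H3K4me3, 49 for H3K27ac and 53 for distal H3K27ac, 0 passed by temperature or by diet. The interaction was fitted only for the promoter breadth of both marks, and 0 passed there. The median of cold minus warm in H3K4me3 was 0.36, and the lowest p on either side belonged to Batf (0.94), Elk3 (0.88), Tob1 (−0.38) and Nab1 (−0.34). By diet the median was −0.50, with Egr3, a paralog of Egr1, at −2.86, Batf at −0.94, Sik1 at 0.48 and Mcl1 at 0.31. In distal H3K27ac, Sgk1 (4.08) and Elk3 (3.87) had the lowest p among those above 0 in cold, and neither passed. Between the marks 12 of 49 passed, beside 64.7% of all genes tested, all with the broader H3K4me3 (Mrtfa, Srf, Gadd45b, Socs3, Plk3, Myc, Crtc2, Nab1, Ier5, Tob1, Klf2 and Crtc3), and the median was 0.98 beside 1.57 over all genes.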

How the data were processed

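ChIP-seq of 4 histone marks and input was made from 8 mice, and the 32 deposited MACS2 peak lists were used. Per the labels and the study's methods the authors trimmed reads with cutadapt, aligned them with Bowtie2 to GRCm38 and called peaks in each sample against its input (their versions: not given in the sources used here). In each deposited list the authors give a fold enrichment over input, a p-value and q-value as −log10, and a score per peak. The lists give no read depth, so their length is given in its place. The lowest −log10 q in any list was 1.3.

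Peaks were assigned to genes of GENCODE vM21 (basic) by overlap of at least 1 bp with 1000 bp either side of a start, and distal bases lay farther than that from every start. Breadth was tested as log2(bp + 100) with limma 3.58.1 in R 4.3.3 over all genes with a peak in at least 2 lists, with temperature and diet as terms, all 8 mice, and Benjamini-Hochberg adjustment at 0.05. For the H3K27ac promoter fits limma gave every gene the same standard error. Presence was tested with Fisher's exact test. Only the H3K4me3 fit by temperature was tried on simulated data, with independent noise per gene and mouse. That simulation holds no shift shared over genes within a mouse and does not cover the H3K27ac fits. The lists of a mouse come from the same animal, so marks were also compared with the mouse as a block. The deviations of each gene from its mean over the 8 mice correlated between the marks in the same mouse at −0.0892 to 0.26 over 12493 genes. These deviations include any differences by temperature and diet. All 10 members were named whatever their values, and other genes of the 62-gene list were named by lowest p. The members and lists were chosen with earlier results of these data known. Alternatives were the window, pseudocount, q threshold, list minimum, stitching, list scaling, list length as a covariate, and each mouse left out. The deposited files hold peaks only, and the 8 inputs entered through the authors' peak calls. The methods can also be read as pooling tissue of 2 mice per experiment. If so, p-values measure the spread between pools.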

Additional observations from a re-analysis of the deposited data

Results flagged for a closer look

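Within groups of 4 mice, the highest or lowest value stood apart by Dixon's criterion in 10 of 76 groups tested. Chance alone puts about 5% of groups there, but the counts cannot be compared: the groups by temperature and by diet hold the same mice, and 4 of the 10 are Egr1 H3K27ac with the other mice at 0, where any peak meets the criterion. Mouse 7 was the low value in 3 of them, in H3K4me3 breadth among the warm mice: Jun at 1752 bp (others 4279 to 4359 bp), Junb at 524 bp (others 5004 to 5146 bp) and Nr4a2 at 1378 bp (others 5431 to 5890 bp). Its H3K4me3 list was the shortest, at 13517 peaks.

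Nr4a2 in mouse 11 was the high value among the cold mice, with 6358 bp of H3K4me3 against 4239 to 4482 bp, and the H3K4me3 list of mouse 11 was the longest at 24104 peaks. Jun in mouse 10 was the low value in H3K27ac among the cold mice, with 1645 bp against 3887 to 4241 bp. Fos in mouse 5 was the low value in H3K4me3 among the NCD mice, with 2042 bp against 3166 to 3309 bp, while the H3K4me3 list of mouse 5 held 22692 peaks and its Fos peak had the highest fold enrichment of the 8, at 81.9. Egr1 had an H3K27ac promoter peak of 589 bp in mouse 2 with 0 in the other warm and the other NCD mice, and of 230 bp in mouse 11 with 0 in the other cold and the other HFD mice.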

How the results depend on the processing

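The members' results by temperature and diet kept their call of 0 under every alternative run. Of the values that answer a comparison, 379 stayed within the spread between mice or within 1.5 times their count and 11 did not. With 1 mouse left out at a time, the median interaction over the members ran from 0.034 (without mouse 7) to 1.86 (without mouse 8) for H3K4me3, with 0 to 6 members passing, and from −0.51 to 4.03 for H3K27ac. A pseudocount of 10 bp gave a median H3K27ac interaction of 3.28. The number of all genes passing the H3K4me3 interaction was 3 with all mice, 44 without mouse 7 and 6964 without mouse 8, and cold against warm within NCD passed in 206 genes against 0 over both diets. Where peaks in at least 6 lists were asked for, 3 of 7 members tested differed between marks in place of 6 of 9, with Egr1 and Nr4a3 no longer tested and Nr4a2 no longer passing, beside 2942 of 7400 genes. With the replicate block, paired by animal, 8 members passed. The median H3K27ac percentile of the members was 75.4 with a window of 2500 bp and 82.3 with peaks stitched over 500 bp, against 54.9. H3K4me1 was found at 6 members within 5 kb and at 4 with a −log10 q of at least 5, and H3K27me3 at 2 with the latter. For single members 72 values moved, 8 calls were gained and 15 lost, the lost ones all in the comparison of marks at Fos and Nr4a2. The cause of these shifts was not tested. The unequal list lengths and mouse 7 limit what these data show.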
